A study of Mus musculus with 3 samples.

Results

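The comparison described here set cells kept in high glucose with added DKK2 protein against cells kept in normal glucose. It rests on 2 of the 3 arrays of the study, 1 for each condition, chosen by their labels. The third array, high glucose without DKK2, is used to tell which differences from normal glucose were also there without DKK2. The cells are labelled as primary endothelial cells of the cavernous tissue of the penis of C57BL/6 mice. Normal glucose was 5 mmol and high glucose 30 mmol as labelled, and each condition lasted 48 h. All groups shared the same culture medium, M199 with heat-inactivated serum, heparin, antibiotics and vascular endothelial growth factor A, so no array shows cells without that growth factor. How much DKK2 was added is not given in the labels. Each array held a pool of RNA from 3 samples, which leaves 1 value per gene and condition, no spread between cultures and no test. The comparison asks how near to normal glucose expression lay once DKK2 was present.

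The corpus cavernosum is the erectile tissue, and its endothelium releases nitric oxide, which relaxes the surrounding smooth muscle. Long exposure to high glucose is a common culture model of diabetic damage to such cells. DKK2 (Dickkopf 2) is a secreted protein that binds the Wnt co-receptors LRP5 and LRP6. Depending on the partner, for example the Kremen receptors, it can block or promote signalling through beta-catenin, and it is known for a part in the growth of blood vessels.

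Values are given on 2 scales. A scaled signal is the processed intensity of a probe divided by its own array's 75th percentile and multiplied so that this percentile reads 1000. It compares arrays for 1 probe and does not compare genes with each other. A difference is the log2 scaled signal in high glucose with DKK2 minus that in normal glucose, so 1 stands for 2-fold. Where 3 scaled signals stand together they are for normal glucose, high glucose and high glucose with DKK2, in that order. The scanner's error model gave a difference a median technical error of 0.20 (SD, at most 0.47), which does not include variation between cultures. The normal glucose array was the dimmest, with a 75th percentile of intensity of 1279 against 2571 and 2676, and 76.6% of its probes were well above background against 84.7% and 83.9%. Which array lay at which position of a slide cannot be told apart from the condition. Of 20886 genes named on the array, 16676 were measured here, meaning that on both arrays the gene's brightest probe was well above background.

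With DKK2 in high glucose, 1566 of these 16676 genes (9.39%) were at least 2-fold higher than in normal glucose and 1875 (11.2%) at least 2-fold lower. In high glucose alone, against the same normal glucose array, 2.44% of 16766 genes were higher and 5.95% lower. Both comparisons share the normal glucose array. The arrays of high glucose with DKK2 and normal glucose thus lay further apart by this count than those of high glucose and normal glucose. The median difference over all genes was 0.06, and the 5th and 95th percentiles were -1.57 and 1.32. At least 4-fold differences were found for 245 higher and 463 lower genes, and at least 8-fold differences for 46 and 121. Below, "higher" and "lower" in a count mean at least 2-fold.

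The counts depended on the brightness of the genes and on the background correction. Of the dimmest 4169 genes 11.4% were higher and 14.6% lower, and of the brightest 4169 genes 6.57% and 5.64%. Among the 12167 genes with an intensity of at least 100 on both arrays, 927 (7.62%) were higher and 1261 (10.4%) lower. Normexp, a background correction with a fixed offset of 50, gave 810 higher and 4247 lower genes. The share of higher genes among those called was then 16.0% in place of 45.5%, and the median over all genes was -0.30 in place of 0.06. Of 3441 genes called, 751 had another measured probe, and for 562 of these (74.8%) every further probe had the same sign.

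**Figure D1:**
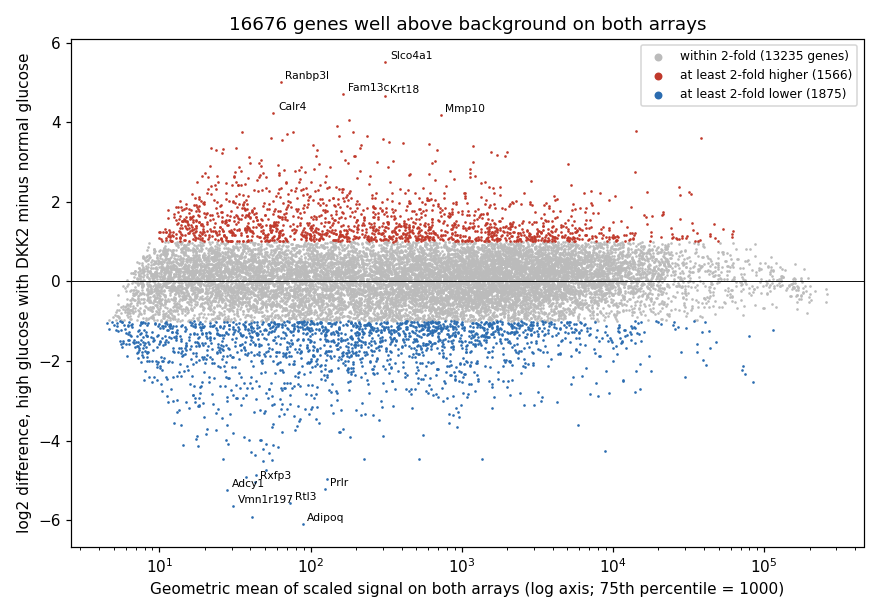
Difference of each gene (log2 scaled signal, high glucose with DKK2 minus normal glucose) against the geometric mean of its scaled signals on both arrays (log axis). Each point is 1 of the 16676 measured genes, and coloured points are at least 2-fold higher (1566) or lower (1875). The points spread more widely among dim genes on the left than among bright genes on the right.

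Upwards, the largest differences were found for genes of several kinds. Slco4a1, an organic anion transporter gene, read 46.2 under normal glucose, 97.6 under high glucose and 2109 with DKK2 added, a difference of 5.51 (technical SD 0.21) and 3.72 with normexp. Il1rl1, which encodes the receptor for interleukin 33, read 3849 under normal glucose, 5464 under high glucose and 53198 with DKK2 added, a difference of 3.79 (SD 0.2), and its other probes gave 3.27 to 3.55. In high glucose alone Slco4a1 was 1.08 higher than in normal glucose (-0.28 with normexp), whereas Il1rl1 was within 2-fold of it. Mmp10, the stromelysin 2 gene, read 171, 194 and 3098, a difference of 4.18. Krt18, a keratin of simple epithelia, read 62.1, 111 and 1574, a difference of 4.66. Sdf2l1, a component of chaperone complexes in the endoplasmic reticulum, read 43.9, 426 and 729, a difference of 4.05, and high glucose alone read high as well. The same rule gave Ranbp3l (5.0), Fam13c (4.71), the calreticulin relative Calr4 (4.22), Cnnm1 (3.91), Calcb, which encodes a calcitonin gene-related peptide (3.76), the myeloid calcium-binding protein gene S100a8 (3.75) and Ms4a6d (3.71). For several of these dim genes the difference was much smaller with normexp, 1.68 for Ranbp3l, 1.56 for Calr4, 1.48 for Calcb and 1.37 for Ms4a6d. The other measured probe of Fam13c gave 0.4.

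Downwards, the largest differences were again found for genes of several kinds. Adipoq, the gene of adiponectin, a hormone of fat cells, read 732 under normal glucose, 809.8 under high glucose and 10.7 with DKK2 added, a difference of -6.09 (SD 0.24) and -4.06 with normexp. Myl1, a light chain of fast muscle myosin, read 207, 309 and 6.8, a difference of -4.93. In high glucose alone both were within 2-fold of normal glucose, so the DKK2 array stood apart. Prlr, the prolactin receptor gene, had a difference of -5.22, with -0.6 on its other probe. The rule also gave the neuronal adenylyl cyclase gene Adcy1 (-5.25), the calcium sensor gene Vsnl1 (-4.47), Rtl3 (-5.57), Wfdc6a (-4.73), Dnajb8 (-4.49), Bcl2l14 (-4.51; other probe -0.06), the relaxin receptor gene Rxfp3 (-5.05; other probe -0.38) and the vomeronasal receptor gene Vmn1r197 (-5.64).

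Some genes were well above background on only 1 of both arrays and have a bound in place of a difference. For the bound, the bright reading was divided by what the probe read on the dim array or by the lowest well-above-background reading there, whichever was larger. On the higher side 1485 genes had no probe well above background in normal glucose, and for 207 of them the bound was at least 2-fold. On the lower side there were 176 genes, all 176 with a bound of at least 2-fold. The lowest well-above-background reading was 5.91 in normal glucose and 2.98 with DKK2. A bound of 2-fold is therefore reached almost by construction on the lower side but not on the higher side. These counts do not compare both sides. Car3, a carbonic anhydrase abundant in fat and muscle, read 823 in normal glucose and was at least 252-fold lower with DKK2. Lhfpl5 was at least 26.5-fold and Stk32b at least 18.9-fold lower. In high glucose alone Car3 read 535. Lhfpl5 read 79.0 in normal glucose and 10.6 in high glucose, and Stk32b read 56.4 and 19.2, so both were already lower without DKK2. Hkdc1, a hexokinase-like gene, read 183 with DKK2 and was at least 30.9-fold higher. Ip6k3, an inositol phosphate kinase gene, was at least 26.8-fold and the leukocyte tetraspanin gene Cd53 at least 19.0-fold higher. In high glucose alone Hkdc1, Ip6k3 and Cd53 read 17.7, 9.09 and 28.4.

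What stayed away from normal glucose despite DKK2 was read over the 16653 genes measured on all 3 arrays. Of these, 278 (1.67%) were at least 2-fold above normal glucose both in high glucose and in high glucose with DKK2, and 774 (4.65%) at least 2-fold below it on both. Genes that stayed away were more often below than above. A further 114 genes were above normal glucose in high glucose and within 2-fold of it with DKK2, and 177 were below and then within 2-fold. Away from normal glucose with DKK2 only were 1286 genes above and 1075 below. On opposite sides were 14 genes, above in high glucose and below with DKK2, and 1 gene the other way. The remaining 12934 genes were within 2-fold on both. Both differences are taken from 1 normal glucose array, so an error of a probe there moves a gene away from it in both, and these counts are a description. Further probes of the gene, where measured, had the same sign for 47 of 69 genes that stayed above (68.1%) and 98 of 163 that stayed below (60.1%). For the genes away with DKK2 only, this was so for 230 of 294 above (78.2%) and 185 of 222 below (83.3%). Among genes within 2-fold on both, the sign with DKK2 was shared for 1997 of 3487 (57.3%), and the 60.1% of the genes that stayed below was close to that share.

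Among the genes that stayed above were 2 chaperone-related genes of the endoplasmic reticulum, Sdf2l1, given before, and the disulfide isomerase gene Pdia4. Pdia4 read 66.9 under normal glucose, 594 under high glucose and 683 with DKK2 added, which is 3.15 in high glucose and 3.35 with DKK2 as differences from normal glucose. Rsl24d1, a ribosome assembly factor gene, lay 3.17 and 3.14 above, and the carnitine transporter relative Slc22a4 lay 2.98 and 2.97 above, but 0.7 and 0.67 with normexp. The other genes the rule gave were Fam13c, Lrrc2 (3.65 with DKK2), the U2 small nuclear RNA gene Rnu2-10 (3.56) and Ttc5 (3.14). Their values with DKK2 lay close to or above those in high glucose. Other probes gave 0.24 for Ttc5 and 0.77 for Rsl24d1.

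The rule gave 8 genes that stayed below by the largest margins. Rhox4g, a reproductive homeobox gene, read 582 under normal glucose, 72.2 under high glucose and 42.1 with DKK2 added, a difference of -3.79. The olfactory receptor gene Olfr502 lay at -3.67 in high glucose and -3.61 with DKK2, and the oocyte peptidylarginine deiminase gene Padi6 at -3.31 and -3.55. Tmem138, a ciliary membrane protein gene, read 488, 48.7 and 51.7 and lay at -3.32 and -3.24. Vmn1r197, Vmn1r174 (-4.1), Ssty1 (-3.95) and Rxfp3 complete the set. Apart from Tmem138, Padi6 and Rxfp3, these genes belong to families of closely related copies, so 1 probe may read several of them.

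Other genes were at least 2-fold away in high glucose and within 0.5 log2 units of normal glucose with DKK2. Those above it in high glucose were led by the adipokine gene Retn, which read 33.2 under normal glucose, 143 under high glucose and 25.7 with DKK2 added, and the acute phase gene Saa3, which read 168 under normal glucose, 626 under high glucose and 203 with DKK2 added. Lrg1, which encodes a secreted modulator of vessel growth, read 128, 313 and 154, and Btc, an epidermal growth factor family ligand gene, read 50.6, 138 and 56.6. Cdcp1, Cox8b, Ccny and Olfr700 were the others, with differences of 0.12, 0.32, 0.3 and 0.49 with DKK2. The other probe of Retn gave -1.99 with DKK2, and with normexp Retn lay at -1.25. In high glucose 6 of these 8 genes were less than 2-fold above normal glucose with normexp: Retn (0.41), Lrg1 (0.68), Cdcp1 (0.61), Btc (0.29), Cox8b (0.27) and Olfr700 (0.17). Below it in high glucose was Flt4, the receptor of lymphatic growth factors, which read 16.2 under normal glucose, 5.6 under high glucose and 18.1 with DKK2 added. The hepatic lipase gene Lipc (17.0, 5.81 and 22.3), the glutamate transporter gene Slc1a2 (38.3, 12.6 and 39.5) and Rbm38 (103, 37.1 and 115) had the same pattern, as did Kap, Uap1l1, Tafa3 and Olfr786. With normexp, however, the 8 genes below it in high glucose lay between -1.57 and -0.09 with DKK2, Flt4 among them at -1.32.

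Other genes lay away from normal glucose with DKK2 only. Mmp13, collagenase 3, read 646 under normal glucose, 904 under high glucose and 6122 with DKK2 added, a difference of 3.24. Atf3, a stress-induced transcription factor gene, read 506, 632 and 4813, a difference of 3.25. The irritant-gated channel gene Trpa1 (3.49), the mast cell protease family gene Mcpt8 (3.58) and the water channel gene Aqp8 (3.05) stood with Mmp10, Calcb and Ranbp3l. Below were Dlk1, the preadipocyte factor 1 gene, at 38934, 36187 and 2035, a difference of -4.26, and the phenol sulfotransferase gene Sult1a1 at 1059, 1193 and 47.9, a difference of -4.47. Ecrg4 (-4.45) and Mfap4 (-4.46) stood with Adipoq, Prlr and Vsnl1. The other probes of Dlk1 and Sult1a1 gave -6.06 and -4.71. In high glucose alone, however, the other probe of Dlk1 already lay at -1.66, so on that probe Dlk1 was not away with DKK2 only.

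**Figure D2:**
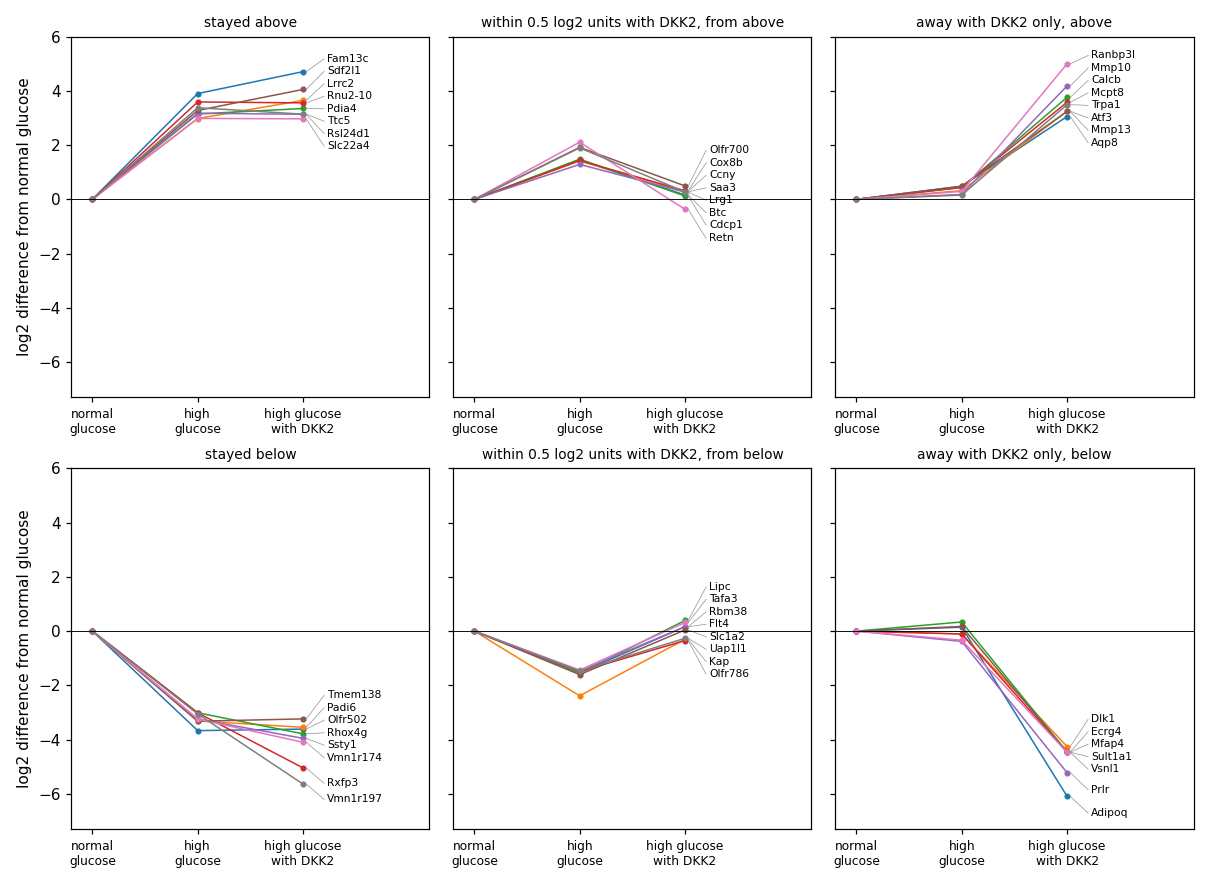
Profiles of the genes named for how they lay against normal glucose, up to 8 per panel, as the log2 difference of scaled signal from the normal glucose array, which is 0 by construction. Each line joins the 3 arrays of 1 gene. Genes in the left panels lie away from 0 on both high glucose arrays, those in the middle panels lie within 0.5 log2 units of it with DKK2, and those in the right panels lie away from it only on the DKK2 array.

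Genes were then read in 52 lists of pathways and cell type markers. Each list is described by how many of its measured members were higher or lower, to be read against 9.39% and 11.2% of all genes, and by its median difference, to be read against 0.06. Among the lists with most members above 0 were mitosis, G1/S and DNA replication, cholesterol synthesis, oxidative phosphorylation, proteasome subunits and macrophage markers. Among those with most members below 0 were small leucine-rich proteoglycans, elastic fibre genes, complement, Frizzled receptors and skeletal muscle, fibroblast and smooth muscle markers.

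**Figure D3:**
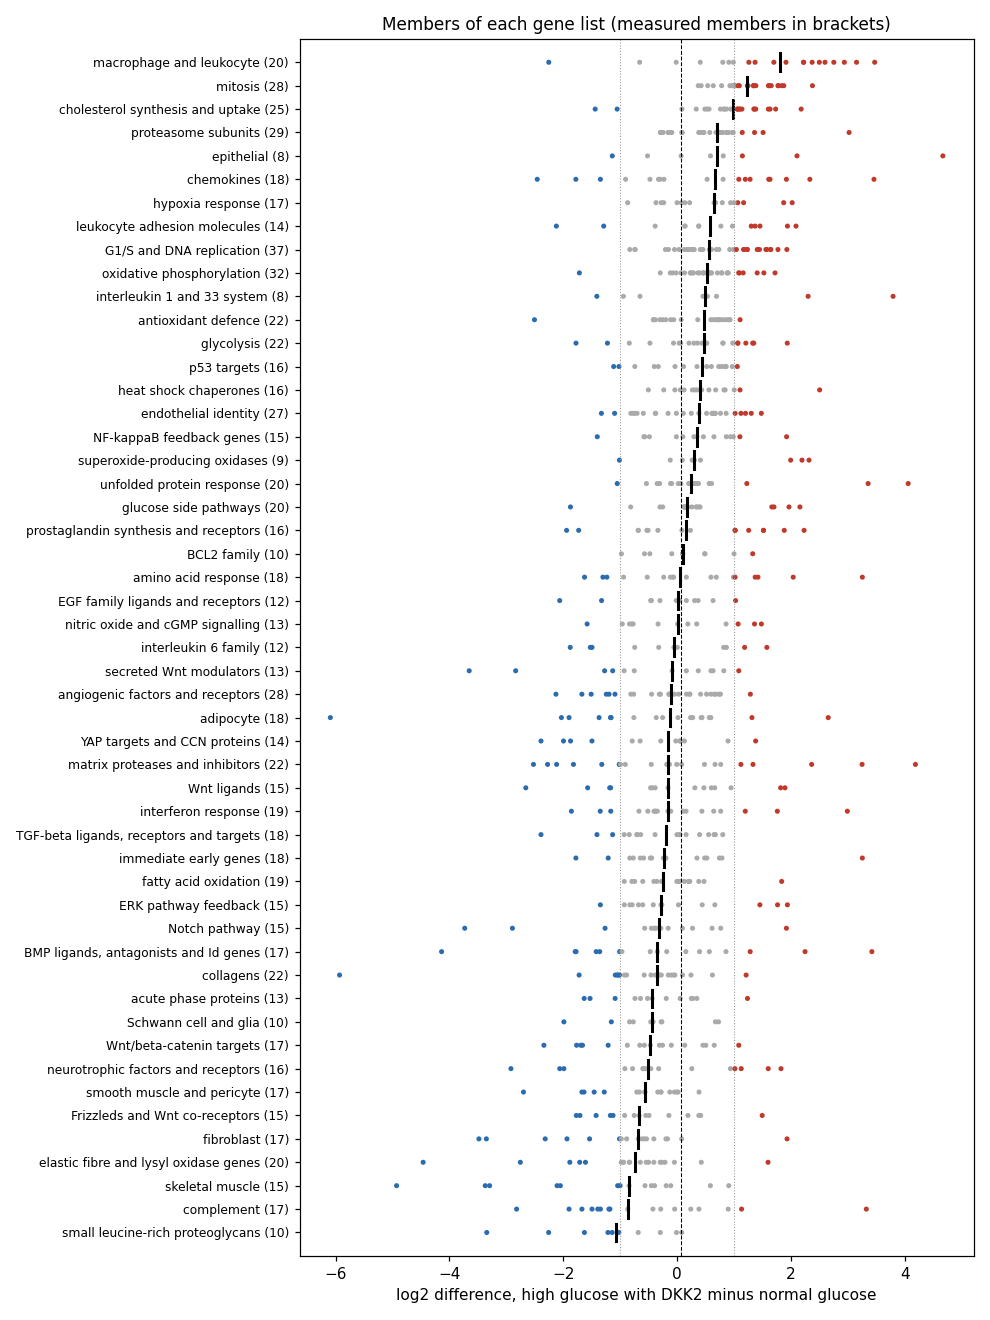
Differences (log2 scaled signal, high glucose with DKK2 minus normal glucose) of the measured members of each gene list with at least 8 of them. Each point is 1 gene, the bar is the list's median, the dotted lines mark 2-fold and the dashed line is the median of all genes. All 28 mitosis genes lie right of 0, and all but 1 of the 10 proteoglycan genes lie left of it.

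The labelled cell type was set beside its markers, which do not tell what share of the cells was endothelial. Of 30 endothelial identity genes 27 were measured, with Kdr, the main receptor of vascular endothelial growth factor, at 2851 under normal glucose, 3549.8 under high glucose and 4074 with DKK2 added. Pecam1 read 105, 143 and 162 and Cdh5, the adherens junction cadherin of endothelium, read 152, 221 and 116. Emcn was not well above background in normal glucose. Erg (4.48, 3.39 and 0.83) and Mmrn1 (3.69, 3.94 and 2.1) were well above background in high glucose alone and on neither of the other arrays. The lowest well-above-background reading was 5.91 in normal glucose and 2.81 in high glucose, so these flags do not show a rise. With DKK2, 5 of the 27 were higher and 2 lower; their median of 0.38 turned to -0.69 with normexp. The stem and endothelial cell marker Cd34 read 29163, 35666 and 66919, a difference of 1.2 (1.45 on its other probe), Mmrn2 lay at 1.48 (0.65 with normexp) and Ecscr at 1.12 (0.82 with normexp), while Clec14a lay at -1.33. Mmrn2 and the adhesion gene Icam2 lay at 1.74 and 2.54 in high glucose and stayed above normal glucose, but with normexp both were within 2-fold of it on both arrays. The summed scaled signal of the list was 36813, 45015 and 76644, of which Cd34 made up most. Such a sum, here and below, follows its brightest probes and is not a measure of the amount of a cell type. Of 2 measured lymphatic markers, Flt4 and Pdpn, neither was called, and the list's median turned from 0.57 to -0.12 with normexp.

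Markers of other cell types were measured as well. Of 18 fibroblast markers 17 were measured, 6 lower and 1 higher; their median was -0.69 and their summed scaled signal was 574741, 522581 and 370296. Dpt, which encodes the matrix protein dermatopontin, read 951 under normal glucose, 558 under high glucose and 85.1 with DKK2 added, a difference of -3.48, and Clec3b read 694, 646 and 68.0, a difference of -3.35. Pi16 and the matricellular gene Postn lay at -2.32 and -1.94. The proteoglycan gene Lum read 20168, 30567 and 21278 and showed no such difference. Of 17 smooth muscle and pericyte markers 5 were lower and 0 higher (median -0.57; 10 lower and median -1.35 with normexp), with a summed signal of 95876, 62534 and 40794. Acta2, smooth muscle actin, read 38761 under normal glucose, 19477 under high glucose and 5964 with DKK2 added, a difference of -2.7, and Pdgfrb, the receptor of pericytes for platelet-derived growth factor, read 17795, 9033 and 5575, a difference of -1.67. Cspg4 lay at -1.64 and Itga8 at -1.46, whereas Myh11 and Cnn1 read 11.8, 15.7 and 11.9 and 560.2, 916 and 556.

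Macrophage and leukocyte markers lay the other way. Of 20 measured, 13 were higher and 1 lower (median 1.80, 0.94 with normexp), and the summed signal was 28192, 21079 and 33150.2. Lyz2, lysozyme of myeloid cells, read 122 under normal glucose, 501 under high glucose and 1349 with DKK2 added, a difference of 3.47, and the lysosomal protease gene Ctss read 648, 1629 and 5742, a difference of 3.15. The Fc receptor gene Fcgr3 and the complement gene C1qa lay at 2.93 and 2.75, and at 0.9 and 1.13 with normexp. Lyz2 and Ctss stayed above normal glucose with and without DKK2. Cd74, the invariant chain of antigen presentation, was the lower member and stayed below, at 256, 48.2 and 53.7. Itgam, which carries much of the summed signal, read 23010.3, 14536 and 14557, a difference of -0.66. In bulk RNA, fewer cells of a type and less RNA per cell cannot be told apart.

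Among fat and muscle genes more were lower than higher with DKK2. Of 18 adipocyte genes 6 were lower and 2 higher (median -0.12, -1.07 with normexp), with a summed scaled signal of 32954, 41205 and 27870.5. Plin1, a coat protein of lipid droplets, read 56.1, 183 and 13.7, a difference of -2.03, and Cfd, the adipsin gene, read 1446, 3954 and 387, a difference of -1.9. Both were above normal glucose in high glucose, Plin1 by 0.57 only with normexp, and below it with DKK2. The fatty acid transporter gene Cd36, at 50.9, 228 and 319, stayed above (0.95 in high glucose with normexp). Of 15 skeletal muscle genes 7 were lower and 0 higher (median -0.85, -1.41 with normexp; summed signal 2932, 2785 and 1081), with the myosin heavy chain genes Myh8 and Myh1 at -3.37 and -3.29 and the troponin gene Tnnt3 at -2.11. Schwann cell markers had 2 of 10 lower and 0 higher (median -0.45, -0.96 with normexp; summed signal 16080.3, 15877 and 9247), with the neurotrophin receptor gene Ngfr at -1.99. Of 8 epithelial markers 3 were higher and 1 lower, with Krt18 and Krt19 (1.14, 0.34 with normexp) above and Esrp1 at -1.14, and the summed signal was 583, 558 and 2173. The median of this list, 0.69, turned to -0.60 with normexp and -0.23 where an intensity of at least 100 was required, while the defining markers Epcam, Cdh1 and Krt8 and the junction gene Ocln were not well above background in normal glucose and were so with DKK2. Epcam read 3.5 and 3.67 on these arrays, Cdh1 3.06 and 3.72, Krt8 1.56 and 9.87 and Ocln 1.31 and 11.9. The part of any shift in cell types in the results that follow was not tested.

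Genes of the pathway that DKK2 acts on are ordered from ligand to target. Endogenous Dkk2 read 10665 under normal glucose, 3559 under high glucose and 6318 with DKK2 added, a difference of -1.58 in high glucose and -0.76 with DKK2, so it lay nearer to normal glucose on the DKK2 array. Of 15 Wnt ligands 4 were lower and 2 higher (median -0.16), and with normexp 10 were lower and 1 higher (median -1.29). Wnt11, a ligand mainly of beta-catenin-independent signalling, read 278, 209 and 44.0, a difference of -2.66, and Wnt9a read 361, 445 and 1340.2, a difference of 1.89. Wnt2 lay at -1.57 and Wnt10a at 1.81 (0.16 with normexp).

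Of 15 Frizzled receptors and Wnt co-receptors 5 were lower and 1 higher (median -0.67). Lrp6, a co-receptor bound by DKK2, read 10543 under normal glucose, 8986 under high glucose and 4670.2 with DKK2 added, a difference of -1.17, and its other probe gave -1.55. Lrp5 read 2167, 1248 and 1361, a difference of -0.67, which was there in high glucose alone (-0.8). Kremen1, a receptor that removes LRP6 from the surface together with DKK proteins, lay at -0.92, with 0.34 on its other probe. Kremen2 was well above background with DKK2 but not in normal glucose, at 4.18 and 3.82. Fzd5 and Fzd8 stayed below normal glucose in both conditions, at -1.64 and -1.71 for Fzd5 and -1.03 and -1.42 for Fzd8, but another probe of Fzd5 gave 0.32. Fzd4, the receptor of norrin in vessel development, read 419, 543 and 123, a difference of -1.77 seen with DKK2 only. Fzd10, the higher member, lay at 1.49 and at 0.14 with normexp.

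Secreted modulators were 4 lower and 1 higher of 13 (median -0.09, -0.96 with normexp). Sfrp2, a secreted Frizzled-related antagonist, read 3303 under normal glucose, 3328 under high glucose and 263 with DKK2 added, a difference of -3.65 (SD 0.2), and Sfrp1 read 1806, 1166 and 253, a difference of -2.84. The R-spondin genes Rspo2 and Rspo3, whose products strengthen Wnt signalling, lay at -1.28 and -1.13. Among 17 Wnt/beta-catenin targets 5 were lower and 1 higher (median -0.47), and with normexp 10 were lower and 0 higher (median -1.25). Lgr5, an R-spondin receptor, read 1529.6 under normal glucose, 2945 under high glucose and 302 with DKK2 added, a difference of -2.34 with DKK2 beside 0.95 in high glucose. Nkd1, a feedback inhibitor, read 149.8, 195 and 44.0, a difference of -1.77 (-1.78 on its other probe), and the transcription factor gene Lef1 read 64.5, 32.7 and 20.4, a difference of -1.66. Tnfrsf19 lay at -1.69, with -0.08 on its other probe. Axin2, the standard feedback target, was dim at 19.9, 29.6 and 16.6 and differed by -0.26, within 2-fold, but by -1.54 with normexp.

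Angiogenic genes came next. Of 28 factors and receptors 6 were lower and 1 higher (median -0.11; 9 lower and 0 higher with normexp). Angpt1, whose product stabilises vessels through the Tie2 receptor, read 1712 under normal glucose, 199.9 under high glucose and 391 with DKK2 added. It lay at -3.1 in high glucose and -2.13 with DKK2 (SD 0.2), so it stayed below normal glucose although it was higher with DKK2 than without. Angpt2, its context-dependent antagonist, read 256, 687 and 385, at 1.43 in high glucose and 0.59, within 2-fold, with DKK2. Tek, the Tie2 gene, read 35.7, 45.7 and 20.3, a difference of -0.82 (-1.46 with normexp). The anti-angiogenic matrix gene Thbs1 lay at -1.51 and the higher member, Angptl2, at 1.28. Vegfa differed by 0.67, with -0.34 on its other probe.

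Vessel tone genes were mixed. Of 13 nitric oxide and cGMP genes 3 were higher and 1 lower (median 0.01, -0.25 with normexp). Nos3, the endothelial nitric oxide synthase gene, read 76.2 under normal glucose, 180.0 under high glucose and 138 with DKK2 added, a difference of 0.86 and -0.08 with normexp. Gch1, the first enzyme of synthesis of the nitric oxide synthase cofactor, lay at 1.48 (0.58 on its other probe), Pde5a, the phosphodiesterase that sildenafil blocks, at 1.36, and Nos2 at 1.07 (0.56 with normexp). The potassium channel gene Kcnma1 lay at -1.58. Of 16 prostaglandin genes 7 were higher and 2 lower (median 0.16, -0.01 with normexp). Both cyclooxygenase genes were among the higher ones: Ptgs1 read 6898, 8692 and 25361, a difference of 1.88, and Ptgs2 read 2148, 2713 and 6129, a difference of 1.51. The receptor gene Ptgfr read 483, 914 and 2261, a difference of 2.23, while the receptor genes Ptger3 and Ptger1 lay at -1.94 and -1.73. Ptgir, the prostacyclin receptor gene, stayed above normal glucose at 1.26 and 1.02.

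The Notch pathway, which patterns vessels through contact between cells, had 3 of 15 genes lower and 1 higher (median -0.32), and 9 lower and 0 higher with normexp (median -1.17). Notch1 read 2936 under normal glucose, 737 under high glucose and 395 with DKK2 added and Lfng, which modifies Notch receptors with sugars, read 86.4 under normal glucose, 13.7 under high glucose and 6.5 with DKK2 added. Both stayed below normal glucose, at -2.0 and -2.89 for Notch1 and -2.66 and -3.73 for Lfng. The other probe of Notch1 gave 0.44. The ligand gene Jag1 read 454, 597 and 188 and lay at -1.27 with DKK2 only.

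Genes of mitosis shared 1 sign. Of 28 measured mitosis genes 19 were higher and 0 lower, all 28 lay above 0, and the median was 1.23 (1.00 with normexp), against 0.15 in high glucose alone. Ccnb2, a cyclin of mitotic entry, read 784 under normal glucose, 1339 under high glucose and 4061 with DKK2 added, a difference of 2.37 (SD 0.2). The kinetochore genes Nuf2 and Cenpe read 82.0, 143 and 299.9 and 977, 1486 and 3484, differences of 1.87 and 1.83. Birc5, which encodes survivin, a member of the chromosomal passenger complex, read 2429.6, 3648 and 8308, a difference of 1.77 (1.65 to 2.04 on its other probes). In each of these 4 genes high glucose lay between normal glucose and DKK2. Of 37 G1/S and DNA replication genes 13 were higher and 0 lower (median 0.57). Cdt1, a licensing factor of replication origins, read 1498, 2370.3 and 5686, a difference of 1.92, and the GINS complex genes Gins1 and Gins2 lay at 1.77 and 1.64. Gins2 stayed above normal glucose in both conditions (0.95 in high glucose with normexp).

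Cholesterol synthesis and uptake had 12 of 25 genes higher and 2 lower; their median was 0.98 (0.83 with normexp) against -0.06 in high glucose alone. Msmo1, a sterol demethylating enzyme, read 4379 under normal glucose, 5169 under high glucose and 14498 with DKK2 added, a difference of 1.73, and Sc5d, a sterol desaturase, read 1064, 1306 and 3220.2, a difference of 1.6. Insig1, the sterol-sensing retention factor of the pathway, read 182, 339 and 562, a difference of 1.63. Dhcr7, the last enzyme of 1 branch, and Srebf2, which encodes the transcription factor that drives the pathway, went the other way and stayed below, at 566, 141 and 208 and 617, 229 and 297, although the other probe of Srebf2 gave 0.52 with DKK2.

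**Figure D4:**
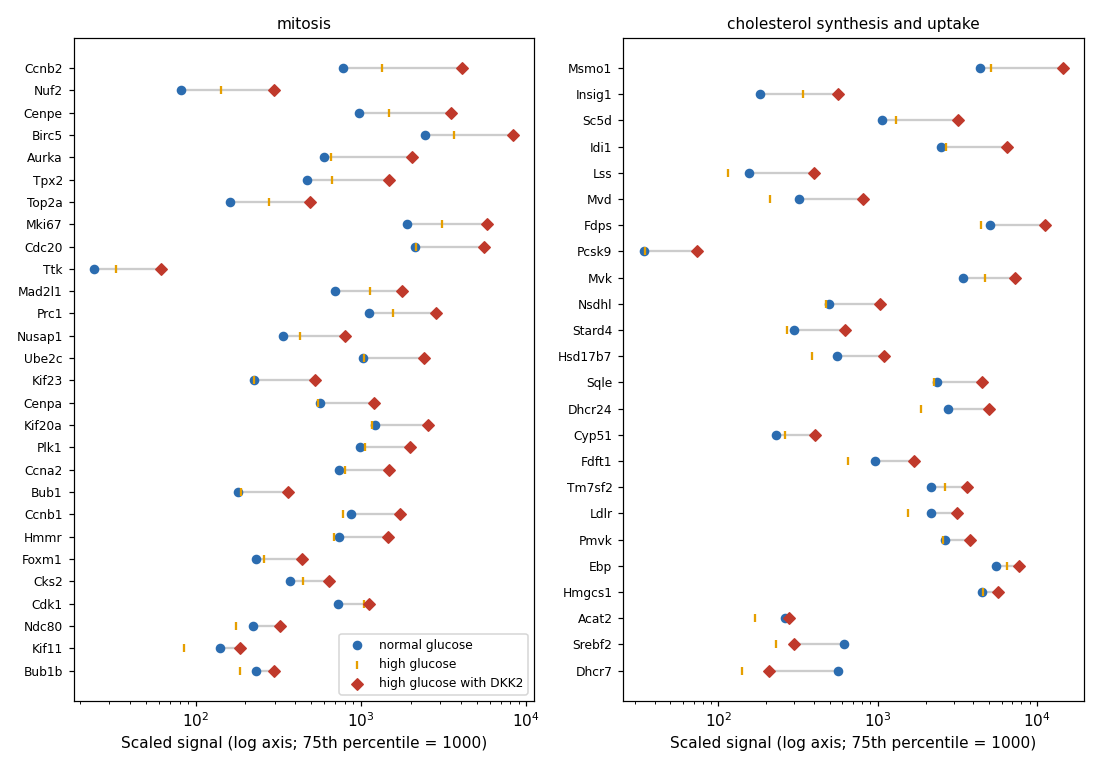
Scaled signal (log axis) of the 28 measured mitosis genes and of measured cholesterol genes on the 3 arrays. Each row is 1 gene, with a circle for normal glucose, a tick for high glucose and a diamond for high glucose with DKK2, and a grey line joins circle and diamond. The diamond lies right of the circle for all 28 mitosis genes and for all the cholesterol genes drawn except Dhcr7 and Srebf2.

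Promoter sequence was set beside these gene groups, in which most members lay above 0. The windows are the 250 bases before the start of the gene in RefSeq on GRCm38.p6, given on the gene's own strand from 5′ to 3′. Both strands were searched for the CCAAT box (CCAAT), for the cell cycle homology region (TTTGAA) and for a sterol regulatory element (TCACNCCAC). Shown are Msmo1 and Ccnb2, the members with a window that had the largest difference in each group, and Nuf2, the mitosis gene with the next largest difference, which holds none of these letters. Capitals mark a match, no matches overlap in these windows, and the coordinates are chr8:64733579-64733828 for Msmo1, chr9:70421555-70421804 for Ccnb2 and chr1:169531465-169531714 for Nuf2, all on the minus strand.
Msmo1: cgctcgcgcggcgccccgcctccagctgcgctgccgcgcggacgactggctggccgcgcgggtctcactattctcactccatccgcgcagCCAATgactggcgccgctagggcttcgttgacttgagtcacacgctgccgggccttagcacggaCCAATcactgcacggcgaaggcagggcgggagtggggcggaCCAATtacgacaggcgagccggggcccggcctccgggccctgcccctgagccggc
Ccnb2: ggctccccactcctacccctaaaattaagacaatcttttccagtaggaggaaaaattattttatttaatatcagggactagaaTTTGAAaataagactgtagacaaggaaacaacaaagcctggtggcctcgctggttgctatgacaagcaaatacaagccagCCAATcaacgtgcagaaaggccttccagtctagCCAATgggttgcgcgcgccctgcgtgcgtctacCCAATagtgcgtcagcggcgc
Nuf2: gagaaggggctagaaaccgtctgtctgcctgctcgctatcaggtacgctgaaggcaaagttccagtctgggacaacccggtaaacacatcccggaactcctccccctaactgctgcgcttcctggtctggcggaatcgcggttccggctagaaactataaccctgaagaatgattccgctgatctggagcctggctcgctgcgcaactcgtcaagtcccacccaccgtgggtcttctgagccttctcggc

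Msmo1 holds 3 CCAAT boxes, and Ccnb2 holds 3 of them and 1 cell cycle homology match. That match begins 167 bases before the start of Ccnb2, further out than its CCAAT boxes at 87, 54 and 21. In the other mitosis genes with a match, the nearest one begins 15 to 98 bases before the start. The CCAAT box was found in 15 of 17 cholesterol genes with a window (88.2%), 20 of 25 mitosis genes (80.0%) and 14 of 30 G1/S genes (46.7%), beside 34.5% of the windows of all 27025 genes. The cell cycle homology region was found in 7 of 25 mitosis genes (28%), 4 of 30 G1/S genes (13.3%), 1 of 17 cholesterol genes (5.88%) and 16.3% of all genes. The sterol element was found in 1 of 17 cholesterol genes (5.88%), Hmgcs1, and 1.04% of all genes. A match is a run of letters, and no binding was measured.

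Glucose metabolism was mixed. The glycolysis list had 6 higher and 2 lower of 22 genes (median 0.47). Aldoc, an aldolase gene, read 359 under normal glucose, 524 under high glucose and 1368 with DKK2 added, a difference of 1.93, and the lactate dehydrogenase gene Ldha read 33945, 55270.3 and 84992, a difference of 1.32 (1.02 to 1.5 on its other probes). Pgk1, phosphoglycerate kinase, lay at 1.34. Pfkl, a phosphofructokinase gene, stayed below normal glucose in both conditions, at 1977, 553 and 576. Of 20 genes of the polyol, hexosamine and pentose phosphate side pathways 4 were higher and 1 lower (median 0.18). Akr1b3, aldose reductase, the first enzyme of the polyol pathway, read 4929 under normal glucose, 6494 under high glucose and 21930.4 with DKK2 added, a difference of 2.15 (2.45 on its other probe). Taldo1, of the pentose phosphate pathway, read 11896, 17752 and 38596, a difference of 1.7. Mlxipl, which encodes the glucose-responsive transcription factor ChREBP, stayed above normal glucose at 1099.7, 3826 and 4282, although its other probe gave -0.14 in high glucose, and Oga, the enzyme that removes O-GlcNAc from proteins, stayed below at 1451, 465 and 395. Txnip, a gene induced by glucose, differed by 0.38, with -0.51 on its other probe.

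Mitochondrial and proteasome genes had medians above 0 both with DKK2 and in high glucose alone. Of 32 oxidative phosphorylation genes 6 were higher and 1 lower (median 0.52, 0.36 in high glucose). The complex I gene Ndufs8 and the complex III gene Uqcrfs1 read 1064, 2219 and 3052 and 3287, 6993 and 8693 and stayed above normal glucose, while the complex III gene Uqcrc1 read 10389, 2171 and 3155 and stayed below. Of 29 proteasome genes 4 were higher and 0 lower (median 0.70, 0.38 in high glucose). Psmb2 read 234 under normal glucose, 1583 under high glucose and 1896 with DKK2 added, a difference of 3.02, and Psmb1 and Psma7 lay at 1.51 and 1.36, and these 3 stayed above normal glucose. Psmd4 lay at 1.14. Fatty acid oxidation had 1 of 19 genes higher, the thioesterase gene Acot1 at 168, 245 and 597, and 0 lower (median -0.26).

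Stress genes were read by pathway. Of 20 unfolded protein response genes 3 were higher and 1 lower (median 0.25). Besides Sdf2l1 and Pdia4, the sensor gene Atf6 lay at 1.22 (0.45 with normexp), and the chaperone gene Hyou1 stayed below at 82.9, 32.1 and 39.9. The main chaperone of the compartment, Hspa5, read 28254, 27414 and 26379.6. Of 18 amino acid response genes 5 were higher and 3 lower (median 0.05). Chac1, a glutathione-degrading enzyme, read 719, 866 and 2949, a difference of 2.04, and the pseudokinase gene Trib3 lay at 1.42. The amino acid transporter genes Slc7a5 and Slc3a2, partners in 1 transporter, and the proline synthesis gene Aldh18a1 stayed below, at -1.63, -1.24 and -1.31 with DKK2, but another probe of Slc7a5 gave 1.06.

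Antioxidant genes had 1 of 22 higher and 1 lower (median 0.47). Sod2, mitochondrial superoxide dismutase, read 6122, 10664 and 13152, a difference of 1.1, and the secreted glutathione peroxidase gene Gpx3 read 3616, 1350.0 and 636 and stayed below in both conditions. Of 9 genes of superoxide-producing oxidases 3 were higher and 1 lower, with Ncf4 at 2.19 (0.79 with normexp) and Noxo1 at -1.02, and the median of 0.30 turned to -0.38 with normexp. Of 16 p53 targets 1 was higher and 2 lower (median 0.43), with Trp53 itself below in both conditions at 809.7, 230.1 and 373, Sesn1 at -1.02 and Ccng1 at 1.05. Of 10 BCL2 family genes 1 was higher, Bcl2l11 at 1.32 (0.24 with normexp), and 0 lower (median 0.10). Hypoxia response had 4 of 17 higher and 0 lower (median 0.65): Ankrd37 read 173, 216 and 699, a difference of 2.02, the oxygen sensor gene Egln3 lay at 1.87 (0.64 with normexp), the mitophagy gene Bnip3 at 1.16 and Hif1a at 1.06. Of 16 heat shock genes 2 were higher and 0 lower (median 0.39), Hspa4l at 597, 925 and 3376, a difference of 2.5, and Hspb1 at 1.1.

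Inflammatory genes differed by family. Of 18 chemokine genes and receptors 8 were higher and 3 lower; their median of 0.66 turned to -0.17 with normexp. Ccl2, the main attractant of monocytes, read 3750.4 under normal glucose, 5377 under high glucose and 14148 with DKK2 added, a difference of 1.92. The platelet factor gene Pf4, also expressed by macrophages, read 184, 287 and 2015, a difference of 3.45, and Ccl9 read 175, 257 and 879, a difference of 2.33. Ackr3, a scavenging receptor for CXCL12, read 2998, 2617 and 546, a difference of -2.46. These genes stood beside macrophage markers whose median was 1.80 on the same arrays, and their part in the result was not tested. Of 14 leukocyte adhesion genes 5 were higher and 2 lower (median 0.57, -0.19 with normexp). The lower ones were Vcam1, at 22467, 20018 and 9176 and a difference of -1.29 (-0.51 on its other probe), and Alcam at -2.12. The junction gene F11r lay at 2.08 and the leukocyte integrin gene Itgb2 at 1.37.

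In the interleukin 1 and 33 system, 2 of 8 genes were higher and 1 lower (median 0.49), with Il1rl1 given before, Il1rn, the receptor antagonist gene, at 2.3 (0.22 with normexp), and the decoy receptor gene Il1r2 at -1.41. The interleukin 6 family had 2 of 12 higher and 3 lower (median -0.06). Il6st, the shared receptor subunit gp130, read 15690.2, 11992 and 5560.2, a difference of -1.5. The ligand gene Lif stayed below at 142, 23.2 and 38.5, its receptor gene Lifr lay at -1.53 (-0.99 to 0.16 on its other probes), and Il11 at 1.57. Of 13 acute phase genes 1 was higher and 3 lower (median -0.44), and with normexp 0 were higher and 8 lower (median -1.25). Hp, haptoglobin, read 236 under normal glucose, 1467 under high glucose and 76.0 with DKK2 added, at 2.64 in high glucose and -1.63 with DKK2, and Saa2 read 9.53, 142 and 4.48, so both were above normal glucose in high glucose and below it with DKK2, although Saa2 lay at only 0.65 in high glucose with normexp. Serpina3n lay at -1.53.

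Complement had 8 of 17 genes lower and 2 higher (median -0.87, 0.12 in high glucose alone). Cfb, factor B of the alternative pathway, read 1227 under normal glucose, 889 under high glucose and 174 with DKK2 added, a difference of -2.82, and Serping1, the inhibitor of the first component, read 21871, 27296 and 6855, a difference of -1.67 (-1.92 on its other probe). C5ar1, the receptor of the fragment C5a on myeloid cells, read 8.4, 16.8 and 83.9, a difference of 3.32 but 0.22 with normexp. Of 19 interferon response genes 3 were higher and 3 lower (median -0.16). Oasl1 read 98.2, 193 and 778, a difference of 2.99, and Rsad2 lay at 1.76 (0.84 with normexp), while Oas2 and Bst2 lay at -1.86 and -1.35. NF-kappaB feedback genes had 2 of 15 higher and 1 lower (median 0.34), with Nfkbiz at 1.92 (0.74 with normexp), Bcl3 at 1.1 and Nfkb2 below in both conditions at 2468, 1061 and 932.

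Among collagen, elastic fibre and proteoglycan genes more were lower than higher with DKK2. Of 22 collagen genes 6 were lower and 1 higher (median -0.35). Col6a2 read 5976 under normal glucose, 2621 under high glucose and 1810.1 with DKK2 added and stayed below in both conditions, the basement membrane collagen gene Col4a1 read 4286, 3029 and 2016, a difference of -1.09, and Col7a1 lay at 1.21 (0.79 with normexp). Col8a2 lay at -5.93, but its other probe gave 0.39. Of 20 elastic fibre and lysyl oxidase genes 5 were lower and 1 higher (median -0.74). Mfap4, a microfibril-associated gene, read 2431 under normal glucose, 2259 under high glucose and 110.3 with DKK2 added, a difference of -4.46 (SD 0.2). The collagen cross-linking enzyme genes Loxl2 and Lox read 3195, 1938 and 473 and 5760.0, 4403 and 1757, differences of -2.76 and -1.71, with -1.46 to -0.72 and -1.42 on other probes. Mfap2 lay at -1.89.

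Small leucine-rich proteoglycans, which coat collagen fibrils, had 6 of 10 genes lower and 0 higher; their median was -1.08 against 0.45 in high glucose alone. Podn read 2640.4, 794 and 259.8 and stayed below in both conditions, while Ogn read 38815, 61631 and 8112 and lay at -2.26 with DKK2 beside 0.67, within 2-fold, in high glucose. Fmod lay at -1.63. Omd read 765, 1684 and 329, so it lay above normal glucose in high glucose (1.14, 1.09 with normexp) and below it with DKK2 (-1.22). Of 22 matrix proteases and inhibitors 5 were higher and 7 lower (median -0.16). Besides Mmp10 and Mmp13, the stromelysin 1 gene Mmp3 read 12048 under normal glucose, 16888 under high glucose and 61811 with DKK2 added, a difference of 2.36. The inhibitor gene Timp4 read 426, 242 and 74.0, a difference of -2.53, and Mmp2, gelatinase A, stayed below at 21694, 10413 and 10714.

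Signals that control matrix were read in the same way. Of 18 TGF-beta genes 3 were lower and 0 higher (median -0.20). Ccn2, a target that encodes connective tissue growth factor, read 12539 under normal glucose, 15008 under high glucose and 2388 with DKK2 added, a difference of -2.39. Tgfb1 read 1352, 339.7 and 509 and stayed below in both conditions, and the endothelial receptor gene Acvrl1 lay at -1.14. Of 17 BMP genes 3 were higher and 6 lower (median -0.35). The antagonist genes were split: Grem1 read 14633, 17897 and 69293, a difference of 2.24, Nog read 31.5, 211 and 337 and stayed above in both conditions (0.85 in high glucose with normexp), and Chrdl1 read 75.1, 46.1 and 4.27, a difference of -4.14. The ligand gene Bmp6 lay at -1.79. Of 14 YAP targets and CCN genes 4 were lower and 1 higher (median -0.16), with Amotl2 at 4079, 2707 and 1022, a difference of -2.0, Ccn5 at -1.87 and Ccn1 at -1.5.

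Growth factor response genes completed the signalling lists. Of 18 immediate early genes 1 was higher, Atf3, and 2 were lower, Klf2, a flow-responsive endothelial transcription factor gene at 4217, 3000.2 and 1228, and Jund at 18018, 5952 and 7774, which stayed below in both conditions (list median -0.23). Of 15 ERK feedback genes 3 were higher and 1 lower (median -0.29). The phosphatase gene Dusp1 read 1067, 1323 and 4076, a difference of 1.93, Dusp2 lay at 1.76 (0.48 with normexp), Errfi1 at 1.45 and Spry1 at -1.35. Of 12 epidermal growth factor family genes 1 was higher and 2 lower (median 0.01, -0.76 with normexp), with Epgn below in both conditions at 201, 48.7 and 48.0 and Erbb2 at -1.33.

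Of 16 neurotrophic factors and receptors 4 were higher and 3 lower (median -0.51). Gdnf, a survival factor of neurons, read 282 under normal glucose, 410.2 under high glucose and 997 with DKK2 added, a difference of 1.82, and Gfra2, a receptor of its family, read 2555, 1764 and 611, a difference of -2.06. Cntfr, the receptor gene of ciliary neurotrophic factor, read 50.6, 13.8 and 6.69 and stayed below in both conditions.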

How the data were processed

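RNA from cells labelled as cavernous endothelial cells was measured on 3 one-colour Agilent arrays, 1 per condition, each with RNA pooled from 3 samples. Sample titles gave the groups. The authors, per the file headers, quantified the scans with Feature Extraction 11.5.1.1 (a design on mm9), and the deposited files hold a background-corrected processed intensity per spot. The deposited value table holds the mean of that intensity over the spots of a probe (99.3% of values equal to a relative 0.001), with no log, scaling or centring (column medians 101.8, 196.2 and 204.6 in normal glucose, high glucose and DKK2).

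Of 44397 spots per array, 1377 control spots and 110, 115 and 136 outlier spots were left out, and 0 spots were saturated. Values are log2 intensity minus the array's 75th percentile over the remaining spots, as the mean of each probe's spots. At least 50% of a probe's spots had to be well above background, and a gene is its brightest such probe. Of 39429 probes, 27508 had an accession that matched 1 symbol in a RefSeq gene table of GRCm38.p6, used for names only, and 11921 matched none there. Of 37 oxidative phosphorylation genes, 32 were measured.

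With 1 array per condition no test was run, and the number of arrays limits the precision. Errors are technical: the scanner's error model, and 399 probes spotted 10 times (spot SD 0.07 to 0.08 log2 units). Genes were named by rule: the 12 largest differences per side (at least 2-fold also with normexp, other probes with that sign), the 3 largest bounds each way (names of predicted genes left out), up to 4 called members per list, 8 genes per side and pattern across the 3 arrays, and 14 genes of interest. Some genes the rule gave are not reported here. Cell type markers and list members named to account for a count were chosen after their values were seen. The comparison, the lists and the rules were chosen with earlier results of these data known. The counting was tested on simulated data. Alternatives were normexp (on the median signal), quantile, median and cyclic loess scaling, no filter or a stricter one, the mean over probes, the deposited table, 1.5-fold and 3-fold, and, added after seeing the data, the percentile over probes. The tools were limma 3.58.1 in R 4.3.3, and pandas 2.3.3, numpy 2.4.6 and matplotlib 3.10.9 in Python 3.11.15.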

Additional observations from a re-analysis of the deposited data

How the results depend on the processing

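No paired analysis was possible because each condition has 1 pooled array. With normexp the counts were 810 higher and 4247 lower, 117 stayed above normal glucose and 3150 stayed below. Without the filter on dim probes these counts were 2434, 2977, 684 and 1430. With an intensity of at least 100 required, 927 were higher, 139 stayed above and 496 stayed below. A size rule of 1.5-fold gave 3617, 3488, 1461 and 1784, and 3-fold gave 528, 814, 67 and 263. Normexp used the same offset of 50 on each array. The 75th percentile of processed intensity was 1279 in normal glucose and 2676 with DKK2. Relative to that percentile the offset was larger in normal glucose, which by construction moves the differences of dim genes downwards. How much of the normexp shift this makes up was not tested. The other settings above change by construction which genes are counted. Quantile, median and cyclic loess scaling, the deposited table, the mean over probes and the percentile over probes, an alternative chosen after seeing the data, kept all 4 counts within 1.5 times the reported ones. The share of higher genes among those called was 51.7% with median scaling and 40.7% with cyclic loess. List medians that turned sign with normexp were endothelial (-0.69), lymphatic (-0.12), epithelial (-0.60), superoxide-producing oxidases (-0.38), chemokines (-0.17), leukocyte adhesion (-0.19), nitric oxide and cGMP (-0.25), prostaglandin (-0.01) and epidermal growth factor family (-0.76), and the epithelial one was -0.23 with an intensity of at least 100. Of 236 genes given by the naming rule and measured on both arrays, none turned sign once called. For normexp this was fixed in advance, because the rule kept called genes only if their sign was the same with it. Only the genes of interest were exempt. With normexp, 116 moved by more than their technical error. With the mean over probes this was so for 28. Acvrl1 (-0.95), Angptl2 (0.99), Col4a1 (-0.97), Itgb2 (0.96), Noxo1 (-0.99), Rspo3 (-0.96) and Sesn1 (-0.9) fell just short of 2-fold with normexp. Low signal over background limits the dim genes, and the normal glucose array is the dimmest.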
